A study of Sorghum bicolor with 96 samples.

Results

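The maturity genes Ma1 (PRR37, Sobic.006G057866), Ma2 (Sobic.002G302700), Ma3 (PHYB, Sobic.001G394400), Ma5 (PHYC, Sobic.001G087100) and Ma6 (Ghd7, Sobic.006G004400) were taken as a list of 5 identifiers from the 34129 genes counted in leaves of Sorghum bicolor, with no choice by measured value. The names belong to that list, since the count table carries identifiers alone. The 96 libraries of polyA RNA form 32 groups of 3, from a cold and a heat experiment of 48 libraries each. In the cold experiment, leaves labelled SC224 and leaves labelled RTX430 were taken after 1 h at 10 °C or as controls. In the heat experiment, leaves labelled Macia and leaves labelled RTX430 were taken after 1 h at 42 °C or as controls. All plants grew with days at 30 °C and nights at 20 °C, and each kind of group was taken at ZT1, ZT6, ZT9 and ZT15, where ZT is zeitgeber time, the hours since lights on. The labels call the 3 libraries of a group biological replicates. The day length, the age of the plants and the number of plants in a library are not given in the sources used here.

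Maturity loci set how soon sorghum, a short-day grass, flowers. PHYB and PHYC encode phytochromes, receptors of red and far-red light, and in Arabidopsis phyB also acts as a temperature sensor. PRR37, a pseudo-response regulator related to clock components, and Ghd7, a CCT-domain protein, repress flowering in long days, and light signalling through the phytochromes is needed for their expression. In long days sorghum PRR37 RNA is known to peak in the morning and again in the evening. Ma2 encodes a SMYD-type lysine methyltransferase reported in sorghum to raise PRR37 expression.

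Library totals ran between 1059841 and 11545393 counts, with a median of 3642164.5. Levels are given as CPM, counts scaled to a library of 1000000 counts, after TMM factors had corrected each library for its RNA composition within its experiment. No length was used, so levels are compared between samples of a gene and not between genes. The counts of the 5 genes set the precision. PHYC had 17 to 1198 counts in a library with a median of 185, and PHYB had 4 to 615 with a median of 69.5. Ma2 had 1 to 134 counts with a median of 22.5. PRR37 had 0 to 34 with a median of 2, and Ghd7 had 0 to 9 with a median of 1. Ghd7 did not pass the filter on low counts in either experiment, so 4 of the 5 genes were tested. Where stress and control libraries of a gene are said not to overlap, the share of all genes with such a gap was not computed.

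The genotype names are used as labels only, because the libraries labelled RTX430 in the 2 experiments did not match. Between them, 250 genes were above 3 CPM in the median library of one set and under 0.05 CPM in the other, while SC224 and the RTX430 label of the heat experiment differed in this way at 6 genes. The RTX430 label differed from SC224 at 223 genes within the cold experiment and from Macia at 179 genes within the heat experiment. Genes specific to the other labels were also read in the SC224 control library of replicate 1 at ZT1 (130 and 194 CPM in sum) and in the RTX430 control library of replicate 1 at ZT15 of the heat experiment (415 and 300 CPM), against at most 8.84 CPM in the other libraries. The heat library of RTX430 at ZT1, replicate 2, carries ZT2 in its other labels. The calls these 3 libraries enter are given with and without them, except for Ghd7, which was called only in a fit without the filter on low counts.

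PHYB transcripts were lowest at ZT1 and highest at ZT15 in the controls of all 4 label sets. In SC224 controls PHYB averaged 10.6 ± 1.69, 28.1 ± 9.78, 27 ± 3.38 and 33.3 ± 5.22 CPM at ZT1, ZT6, ZT9 and ZT15 (SD, n = 3 each). For RTX430 controls of the cold experiment the averages were 11.3 ± 3.17, 21.4 ± 6.30, 24.5 ± 7.64 and 27.8 ± 15 CPM. The ZT1 libraries lay below all later ones in both labels, while the later times overlapped one another in each label. In Macia controls PHYB averaged 7.53 ± 0.846, 21.6 ± 5.56, 21.9 ± 2.68 and 29.9 ± 6.52 CPM at the same times. In RTX430 controls of the heat experiment it averaged 9.40 ± 3.53, 15.7 ± 3.80, 28.2 ± 4.82 and 30.9 ± 5.60 CPM. There the ZT1 and ZT6 libraries overlapped and the ZT9 libraries lay above both. With TMM scaling the highest mean was 3.13 times the lowest in SC224 and 2.46 times in RTX430 of the cold experiment, and 3.97 times in Macia and 3.29 times in RTX430 of the heat experiment. Scaled to library totals alone, ZT1 stayed lowest and ZT15 highest in all 4 sets, but the means lay further apart. They were then 7.2 and 49.2 CPM in SC224, and 8.22 and 38.4 CPM in RTX430 of the cold experiment. In Macia they were 6.49 and 46 CPM, and in RTX430 of the heat experiment 8.88 and 48 CPM.

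PHYC also had its lowest control level at ZT1, but with TMM scaling its highest level was at ZT6 or ZT9. In SC224 controls PHYC averaged 31.5 ± 7.13, 76.2 ± 7.66, 88.6 ± 6.33 and 65.7 ± 9.10 CPM at ZT1, ZT6, ZT9 and ZT15 (SD, n = 3 each). In RTX430 controls of the cold experiment it averaged 26.9 ± 6.12, 54.6 ± 7.98, 63.7 ± 1.59 and 54.4 ± 15.8 CPM. The peak was at ZT9 in both labels, and the ZT9 libraries overlapped those of ZT6. In Macia controls the averages were 30.2 ± 4.97, 91.8 ± 13.6, 78.7 ± 18.1 and 58.2 ± 3.98 CPM, with the peak at ZT6. Those of RTX430 controls in the heat experiment were 28.3 ± 9.51, 72.4 ± 12.3, 89.3 ± 20.7 and 58.5 ± 9.60 CPM, with the peak at ZT9. The highest mean exceeded the lowest 2.82 times and 2.36 times in SC224 and RTX430 of the cold experiment, and 3.03 times and 3.15 times in Macia and RTX430 of the heat experiment. The time of the peak and the size of these folds depended on the scaling. Scaled to library totals alone, RTX430 controls of the cold experiment were highest at ZT15 (75.8 CPM, against 74.1 CPM at ZT9). Macia controls were then highest at ZT9 (98 CPM, against 89.9 CPM at ZT15 and 82.9 CPM at ZT6). In SC224 controls PHYC then ran from 21.4 CPM at ZT1 to 105 CPM at ZT9.

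**Figure D1:**
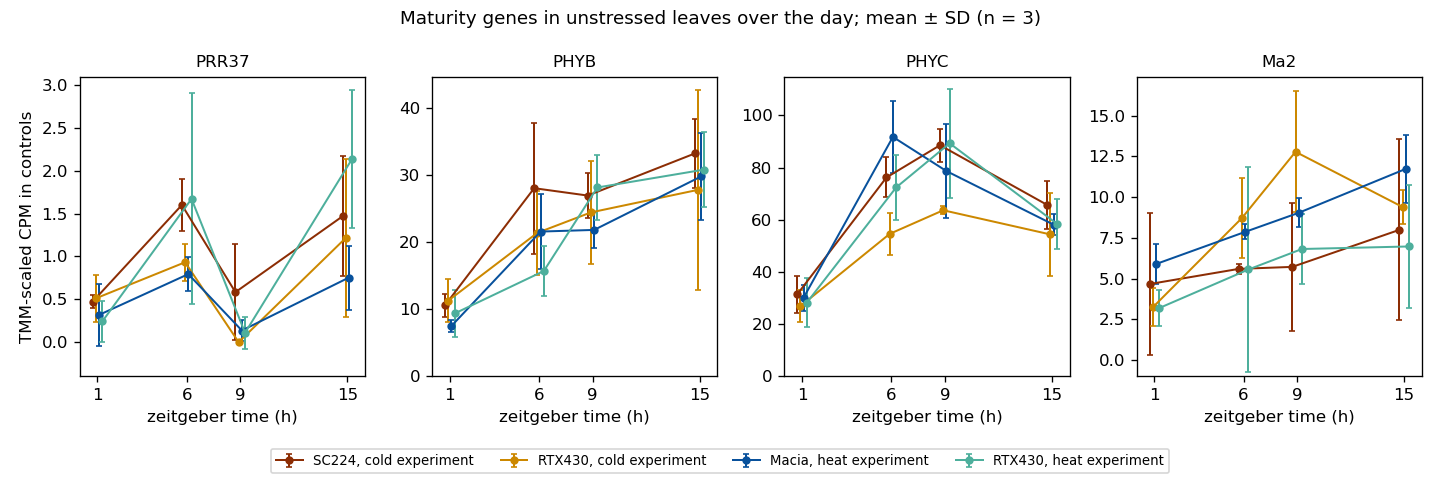
Level of PRR37, PHYB, PHYC and Ma2 in control leaves (y axis, TMM-scaled CPM, its range differing between panels) against time of day (x axis, zeitgeber time in h). Points are means and bars SD of 3 libraries, 1 colour for each label and experiment. PHYB climbs to ZT15, PHYC peaks at ZT6 or ZT9, and PRR37 is higher at ZT6 and ZT15 than at ZT1 and ZT9.

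The difference between times was tested jointly over the 4 times in each control set with edgeR's quasi-likelihood test, adjusted by Benjamini-Hochberg over all genes tested. A gene was called when its adjusted p was under 0.05. PHYB was called in all 4 sets, with adjusted p = 0.00129 in SC224, 0.0127 in RTX430 of the cold experiment, 2.79e-05 in Macia and 7.20e-05 in RTX430 of the heat experiment. PHYC was called in all 4 as well, with adjusted p of 1.71e-06, 3.48e-05, 1.07e-05 and 1.53e-05 in the same order by the same test. A daily difference was common among all genes, since 52.3% of 18248 tested genes were called in SC224 and 50.5% in RTX430 of the cold experiment, and 46.2% of 18648 in Macia and 47.8% in RTX430 of the heat experiment. Of 16 pairs of gene and set, 11 were called. The PHYB call in RTX430 of the cold experiment rested on single libraries, with edgeR adjusted p = 0.0906 without control replicate 1 at ZT1, 0.0726 without replicate 2 and 0.0891 when only those controls were fitted. Without the SC224 control of replicate 1 at ZT1, edgeR gave SC224 adjusted p = 0.00563 for PHYB and 0.000105 for PHYC. Without the RTX430 control of replicate 1 at ZT15, it gave RTX430 of the heat experiment 0.00023 for PHYB and 8.36e-06 for PHYC.

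Cold for 1 h at the earliest time raised PHYB about 4-fold under both labels. At ZT1 PHYB was at 38.2, 58.2 and 26.7 CPM in chilled SC224 leaves, against 11.9, 11.2 and 8.70 CPM in SC224 controls. In RTX430 leaves it was at 43.3, 49.5 and 49.9 CPM after cold, against 8.80, 10.2 and 14.9 CPM in controls. Every chilled library lay above every control library of its label, and 2 of the 3 chilled RTX430 libraries lay above any RTX430 control of the cold experiment at any time. The log2 fold change was 1.94 in SC224 (SE 0.36, edgeR quasi-likelihood adjusted p = 0.00022) and 2.08 in RTX430 (SE 0.35, adjusted p = 8.83e-05). Over all tested genes the median log2 fold change at ZT1 was -0.02 in SC224 and -0.03 in RTX430. Without the SC224 control library of replicate 1 at ZT1, the PHYB log2 fold change in SC224 was 2.02 with edgeR adjusted p = 0.00116. In these bulk leaf samples, a change in the share of cells that hold a transcript and a change in its amount per cell cannot be told apart.

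At the later times no cold contrast of PHYB was called. The log2 fold change in SC224 was -0.32 at ZT6, -0.35 at ZT9 and -0.32 at ZT15, each with an SE of 0.33 or 0.34. In RTX430 it was -0.14, 0.57 and -0.14 at those times, with an SE of 0.33 or 0.34. At ZT15 chilled SC224 leaves held 28, 27.6 and 23.9 CPM of PHYB, all under the 28.1, 38.6 and 33.1 CPM of controls, but the gap between the sets was narrow and the contrast was not called (edgeR adjusted p = 0.931). At ZT9 chilled RTX430 leaves ran between 23.7 and 52.2 CPM and overlapped the controls at 18.6 to 33.1 CPM. The response of PHYB to cold differed between times within each label, with adjusted p = 0.00256 in SC224 and 0.0108 in RTX430 by the joint edgeR quasi-likelihood test. Of all tested genes, 5.97% and 2.3% were called in these tests in SC224 and RTX430. The SC224 value was 0.00832 without control replicate 1 at ZT1. The RTX430 value was 0.0507 without control replicate 1 at ZT1, and 0.0715 when the libraries of RTX430 alone were fitted.

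**Figure D2:**
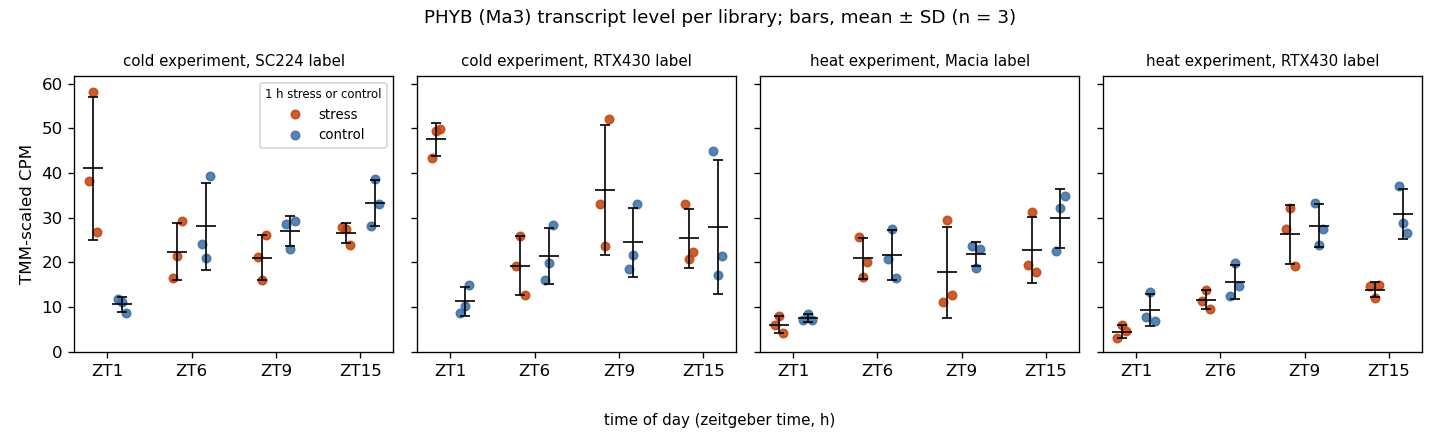
PHYB level in each library (y axis, TMM-scaled CPM) by time of day (x axis), 1 panel for each label and experiment, with stress in orange and control in blue and black bars for mean ± SD of 3. At ZT1 the chilled libraries of SC224 and RTX430 lie at 26.7 to 58.2 CPM, above the controls at 8.70 to 14.9 CPM.

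For PHYC a single cold contrast was called, that of SC224 at ZT1. There it was at 55.8, 50.8 and 43.8 CPM in chilled SC224 leaves, against 23.8, 37.9 and 32.7 CPM in controls, with no overlap. The log2 fold change was 0.66 (SE 0.21, edgeR adjusted p = 0.0313). Without control replicate 1 at ZT1, 1 of the 3 libraries named above, it was 0.50 with adjusted p = 0.160 by edgeR, and leaving out control replicate 3, stress replicate 1 or stress replicate 2 also ended the call, with 0.0671, 0.10 and 0.0985. Without the filter on low counts edgeR gave adjusted p = 0.0696, and with only the 6 libraries concerned 0.241. In RTX430 leaves PHYC was at 31.2, 38.9 and 34.7 CPM after cold at ZT1, against 23.6, 23.2 and 34 CPM in controls, so the groups overlapped, with a log2 fold change of 0.38 (SE 0.21, edgeR adjusted p = 0.353). At the other times the log2 fold change of PHYC ran from -0.21 to 0.42 and none was called. The response did not differ between times past the threshold, with edgeR adjusted p = 0.184 in SC224 and 0.508 in RTX430, but SC224 passed under total-count scaling (0.0175).

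The ratio of PHYB to PHYC counts within a library, which no scaling between libraries can move and which was added after the data were seen, was higher in all chilled libraries at ZT1 than in their controls. It was 0.684, 1.15 and 0.610 in chilled SC224 leaves at ZT1, against 0.500, 0.297 and 0.266 in controls. In RTX430 leaves it was 1.39, 1.27 and 1.44 after cold at ZT1, against 0.373, 0.441 and 0.438 in controls. In the 12 chilled RTX430 libraries, those of ZT1 were the 3 above 1, and the other 9 ran from 0.231 to 0.639. At ZT6, ZT9 and ZT15 the ratios of chilled and control leaves overlapped under both labels. The ratio holds read counts of 2 genes of unstated length, so its change between samples can be read and its size cannot.

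Counted over the 4 tested genes, cold raised 2 at ZT1 in SC224 (PHYB and PHYC) and 1 in RTX430 (PHYB), where 11.1% and 6.59% of all tested genes were called. At ZT6 and ZT15 none of the 4 was called under either label. The share of all tested genes called at ZT6 was 2.84% in SC224 and 3.2% in RTX430, and at ZT15 it was 1.1% and 1%. At ZT9 no gene of the 4 was called in SC224, against 2.71% of all tested genes, and PRR37 was called in RTX430, against 2.13%. In all, 4 of 32 pairs of gene and cold contrast were called by edgeR, and 8 had an unadjusted p under 0.05.

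Heat lowered PHYB in leaves labelled RTX430 at the first and last times. At ZT15 PHYB was at 14.8, 12.1 and 14.9 CPM in heated RTX430 leaves, against 37.2, 28.8 and 26.6 CPM in controls. At ZT1 it was at 3.11, 5.94 and 4.61 CPM in heated RTX430 leaves, against 7.75, 13.4 and 6.99 CPM in controls. Heated and control libraries did not overlap at either time. The log2 fold change was -1.14 at ZT15 (SE 0.30, edgeR adjusted p = 0.00298) and -1.08 at ZT1 (SE 0.37, adjusted p = 0.0214). Without the RTX430 control of replicate 1 at ZT15 the ZT15 value was -0.98 with edgeR adjusted p = 0.0228, and without the heat library that also carries ZT2 the ZT1 value was -1.21 with adjusted p = 0.0190. The ZT1 call was lost without control replicate 2 or without stress replicate 1, with edgeR adjusted p = 0.105 and 0.0797, and it was 0.0701 when only the libraries concerned were fitted. At ZT6 and ZT9 the log2 fold changes in RTX430 were -0.46 (SE 0.32) and -0.11 (SE 0.30).

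In heated Macia leaves edgeR with TMM scaling called no difference of PHYB at any time. At ZT15 it was at 19.4, 31.2 and 17.8 CPM in heated leaves, against 22.5, 32.2 and 34.9 CPM in controls, and the groups overlapped. The log2 fold changes in Macia were -0.28, -0.04, -0.35 and -0.39 at ZT1, ZT6, ZT9 and ZT15, with SEs of 0.29 to 0.34. PHYB was thus negative in 8 of 8 heat contrasts under TMM scaling. So was the median of all tested genes (-0.19 to -0.03), and the share of genes negative in all 8 was not computed. At ZT6 in Macia the log2 fold change of PHYB was 0.04 when counts were scaled to library totals alone. At ZT1 in Macia that scaling gave -1.05 and a call (edgeR adjusted p = 0.0177), where it also lowered the median of all tested genes. The difference between Macia and RTX430 in the heat response of PHYB was 0.76 (SE 0.42) at ZT15 and 0.80 (SE 0.51) at ZT1 on the log2 scale, and the joint edgeR test over the 4 times gave adjusted p = 0.648.

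PHYC was lower after heat in both labels at ZT15. It was at 25.9, 44.2 and 25.1 CPM in heated Macia leaves, against 60.2, 53.6 and 60.8 CPM in controls. In RTX430 leaves it was at 28.5, 28.7 and 25.8 CPM after heat, against 68.8, 56.9 and 49.9 CPM in controls. No heated library reached its controls under either label. The log2 fold change was -0.87 in Macia (SE 0.24, edgeR adjusted p = 0.00855) and -1.08 in RTX430 (SE 0.24, adjusted p = 0.000706), where the median over all tested genes was -0.11 and -0.19. The Macia call was lost without stress replicate 1 or 3, with edgeR adjusted p = 0.0736 and 0.0792, and it was 0.121 when only the libraries concerned were fitted. Without the RTX430 control of replicate 1 at ZT15, the RTX430 value was -0.93 with adjusted p = 0.0071 by edgeR.

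At the other times edgeR with TMM scaling called no heat contrast of PHYC. At ZT6 it was at 50.4, 67.8 and 48.7 CPM in heated Macia leaves, against 105, 77.7 and 92.7 CPM in controls, and the sets did not overlap, with a log2 fold change of -0.72 (SE 0.24, edgeR adjusted p = 0.0723, DESeq2 adjusted p = 0.0241). At ZT6 in RTX430 it was at 44.3, 57.1 and 44.5 CPM in heated leaves, against 84.8, 72.1 and 60.2 CPM in controls, again with no overlap, and the log2 fold change was -0.57 (SE 0.24, edgeR adjusted p = 0.116). At ZT1 and ZT9 heated and control libraries overlapped under both labels. All 8 log2 fold changes of PHYC were below 0, between -1.08 and -0.11, as was the median of all tested genes in each. The share of genes below 0 in all 8 was not computed. The PHYC values stayed below 0 with scaling to library totals. That scaling moved the ZT1 values to -1.04 in Macia (edgeR adjusted p = 0.00283) and -0.92 in RTX430 (adjusted p = 0.00835), against -0.30 and -0.11 with TMM, and moved the median of all tested genes at ZT1 by -0.74 and -0.80 log2 units. The joint edgeR tests for a difference between times gave PHYC adjusted p = 0.640 in Macia and 0.223 in RTX430, and PHYB 0.943 and 0.248, with PHYB in RTX430 at 0.0243 under total-count scaling. Of all tested genes, 10.7% and 11.2% were called in these tests in Macia and RTX430.

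**Figure D3:**
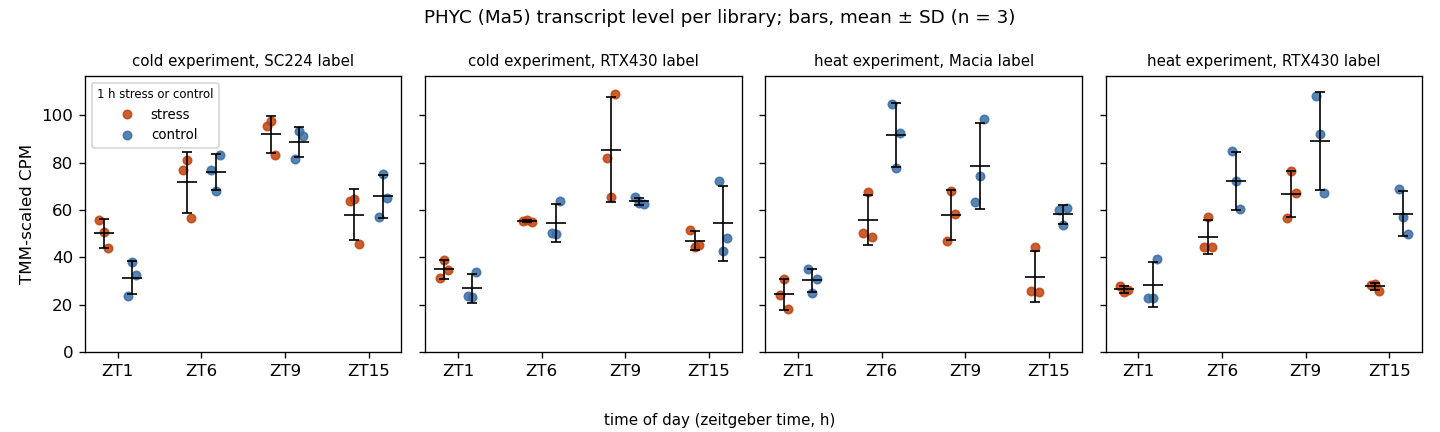
PHYC level in each library (y axis, TMM-scaled CPM) by time of day (x axis), 1 panel for each label and experiment, with stress in orange and control in blue and black bars for mean ± SD of 3. In the heat panels the ZT15 heated libraries lie at 25.1 to 44.2 CPM and the controls at 49.9 to 68.8 CPM.

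The ratio of PHYB to PHYC counts was also read at ZT15 in the heat experiment. It was 0.750, 0.707 and 0.708 in heated Macia leaves, against 0.374, 0.601 and 0.574 in controls. In RTX430 leaves it was 0.519, 0.421 and 0.579 after heat, against 0.540, 0.507 and 0.534 in controls. The Macia sets did not overlap and the RTX430 sets did, and the difference between labels was not tested. At ZT1, ZT6 and ZT9 the ratios of heated and control leaves overlapped under both labels.

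Against the whole transcriptome, the heat calls were not frequent. Heat called none of the 4 genes at ZT1 in Macia and 1 in RTX430 (PHYB), where 37.2% and 35.6% of all tested genes were called. At ZT15 it called 1 in Macia (PHYC) and 2 in RTX430 (PHYB and PHYC), where 19.5% and 35.4% were called. None of the 4 was called at ZT6, against 5.17% of all genes in Macia and 13.3% in RTX430, or at ZT9, against 12.1% and 4.07%. The 4 called pairs of 32 are therefore within what heat did to leaf transcripts at large, and 6 pairs had an unadjusted p under 0.05. The median log2 fold change of the 4 genes ran from -0.93 to -0.09 over the 8 heat contrasts, beside -0.19 to -0.03 for all tested genes. A contrast averaged over both labels and all times, added after the data were seen, gave a log2 fold change of -0.57 for PHYC (SE 0.09, edgeR adjusted p = 5.97e-07) and -0.48 for PHYB (SE 0.11, adjusted p = 0.00034), among 60.6% of all genes called. The same average for cold gave PHYB 0.42 (SE 0.12, edgeR adjusted p = 0.0139) and PHYC 0.13 (SE 0.07, adjusted p = 0.232), where 13.9% of all genes were called, and total-count scaling put PHYB at 0.0734. Leaving out the named libraries put the averages for heat at -0.45 and -0.50 for PHYB and at -0.53 and -0.56 for PHYC, and that for cold at 0.43 for PHYB, all still called by edgeR.

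**Figure D4:**
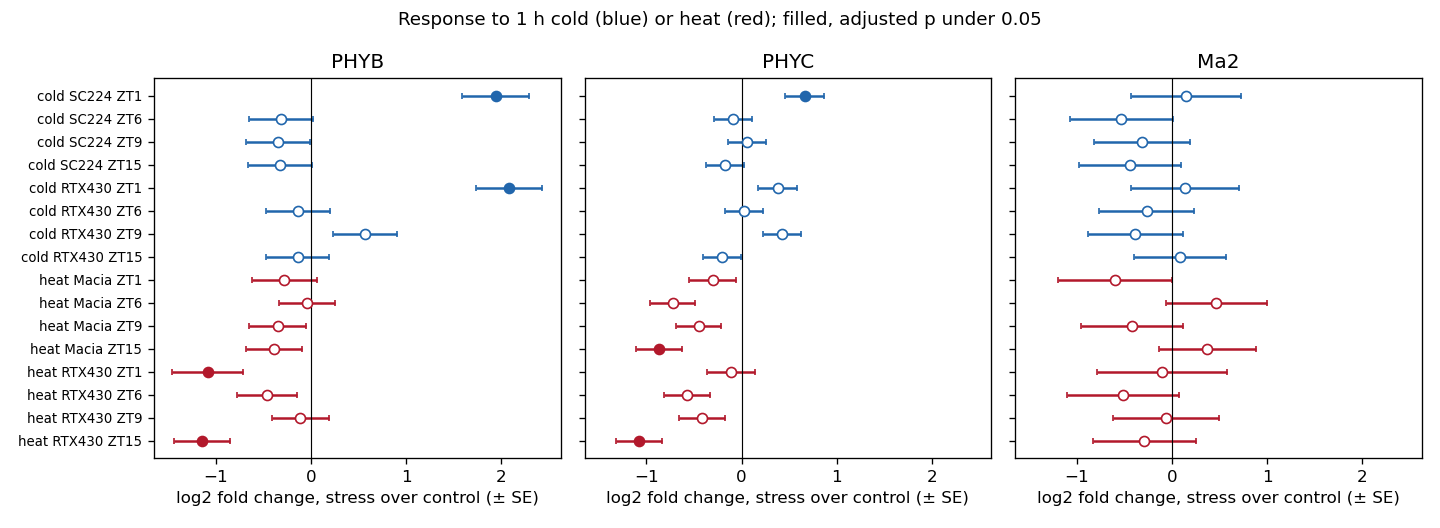
Log2 fold change of stress over control (x axis) with its SE for PHYB, PHYC and Ma2 in the 16 contrasts (y axis), cold in blue and heat in red. Filled points have an edgeR adjusted p under 0.05. PHYB stands at 1.94 and 2.08 in the cold at ZT1, PHYC lies below 0 in all heat contrasts, and no Ma2 point is filled.

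Ma2, the methyltransferase gene, was not called in any of the 16 contrasts with cold or heat. Its log2 fold change ran from -0.53 to 0.14 in the 8 cold contrasts and from -0.60 to 0.46 in the 8 heat contrasts, with SEs of 0.49 to 0.68. Without RTX430 control replicate 1 at ZT15 its value in RTX430 at ZT15 after heat was 0.19 in place of -0.29. At ZT1, where PHYB responded, Ma2 was at 3.90, 2.98 and 3.94 CPM in chilled RTX430 leaves, against 1.89, 3.94 and 3.90 CPM in controls. In SC224 it was at 3.52, 7.88 and 3.22 CPM after cold at ZT1, against 9.69, 2.25 and 2.07 CPM in controls. The highest of these 3 controls is replicate 1, the library that also held genes specific to other labels, and without it the log2 fold change was 1.15 in place of 0.14, with edgeR adjusted p = 0.262. At ZT6 Ma2 was at 13.1, 10.7 and 8.93 CPM in heated Macia leaves, above the 7.58, 7.64 and 8.41 CPM of controls without overlap, with a log2 fold change of 0.46 (SE 0.53, edgeR adjusted p = 0.721).

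Over the day, Ma2 differed between times in 1 of the 4 control sets. In RTX430 controls of the cold experiment it averaged 3.24 ± 1.17, 8.73 ± 2.45, 12.8 ± 3.72 and 9.40 ± 1.02 CPM at ZT1, ZT6, ZT9 and ZT15 (SD, n = 3 each, edgeR adjusted p = 0.0227). The ZT1 libraries lay below all later ones. That call was lost without control replicate 1 or 2 at ZT1, with edgeR adjusted p = 0.133 and 0.0555. ZT1 also had the lowest mean in the other 3 sets, at 4.67 ± 4.35 CPM in SC224, 5.90 ± 1.21 CPM in Macia and 3.20 ± 1.11 CPM in RTX430 of the heat experiment, where edgeR gave adjusted p = 0.624, 0.411 and 0.359. The SC224 mean at ZT1 is carried by replicate 1 at 9.69 CPM, the library with genes of other labels, beside 2.25 and 2.07 CPM, and without it edgeR gave adjusted p = 0.0798. Under scaling to library totals those 3 sets passed as well, with adjusted p = 0.0216, 0.0119 and 0.0449 by edgeR, and Macia passed with only the libraries concerned (0.0289).

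PRR37, the flowering repressor at Ma1, was read at few counts and with 2 high times of day. It had no count in 21 of the 96 libraries and more than 3 counts in 38. In SC224 controls it had 1, 3 and 1 counts at ZT1, 6, 10 and 4 at ZT6, 1, 2 and 3 at ZT9, and 9, 34 and 2 at ZT15. In RTX430 controls of the cold experiment it had 2, 1 and 2 counts at ZT1, 4, 3 and 6 at ZT6, none in any library at ZT9, and 1, 14 and 7 at ZT15. ZT6 and ZT15 were the high times in both labels. In Macia controls it had 0, 1 and 4 counts at ZT1, 4, 2 and 4 at ZT6, 0, 1 and 2 at ZT9, and 4, 4 and 6 at ZT15. In RTX430 controls of the heat experiment it had 1, 0 and 1 counts at ZT1, 1, 3 and 14 at ZT6, 0, 0 and 2 at ZT9, and 11, 5 and 15 at ZT15. The means in CPM put ZT6 and ZT15 above ZT1 and ZT9 in all 4 sets, although neighbouring times overlapped in most. Times differed by edgeR in RTX430 of the cold experiment (adjusted p = 0.00609) and in RTX430 of the heat experiment (adjusted p = 0.00381), while SC224 gave 0.0520 and Macia 0.223. The SC224 value was 0.0168 without control replicate 3 at ZT9 and 0.0427 without control replicate 3 at ZT15, and SC224 also passed under total-count scaling (edgeR adjusted p = 0.0106) and with DESeq2 (0.0457). Without the SC224 control of replicate 1 at ZT1 edgeR gave 0.0782, and without the RTX430 control of replicate 1 at ZT15 the heat experiment gave 0.00987.

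In the cold, PRR37 lay below its controls at ZT1 and above them at ZT6 in every chilled library, but no contrast at those times passed the test. The share of all genes with such gaps was not computed, so the gaps cannot be read as a trait of PRR37. No count was read in any of the 6 chilled libraries at ZT1, against 5 counts summed over 3 controls in each label. With 3 counts over the chilled group as the floor, the pooled control level was 1.18 times the floor in SC224 and 2.00 times in RTX430. These ratios leave out the counting error of the 5 control counts, so they are not lower bounds on a fall. By edgeR the adjusted p was 0.119 in SC224 and 0.0713 in RTX430. At ZT6 it had 14, 13 and 11 counts (4.93, 2.25 and 3.29 CPM) in chilled SC224 leaves, against 6, 10 and 4 counts (1.76, 1.79 and 1.25 CPM) in controls. In RTX430 leaves it had 4, 20 and 6 counts at ZT6 (2.03, 3.02 and 2.12 CPM) after cold, against 4, 3 and 6 counts (1.02, 0.685 and 1.09 CPM) in controls. In CPM no chilled library at ZT6 fell within the range of its controls. The log2 fold change was 1.07 in SC224 (SE 0.61, edgeR adjusted p = 0.473) and 1.37 in RTX430 (SE 0.65, adjusted p = 0.335), so neither passed.

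At ZT9 PRR37 had 3, 9 and 2 counts in chilled RTX430 leaves, against 0, 0 and 0 in controls. The pooled chilled level was 3.05 times the floor of 3 counts over the control group, with no allowance for counting error. The contrast was called by edgeR with adjusted p = 0.0452. The call did not hold up: edgeR gave adjusted p between 0.0427 and 0.322 when single libraries were left out, and 5 of these 6 fits missed the threshold. Those were the fits without control replicate 1 (0.0983), control replicate 2 (0.322), control replicate 3 (0.103), stress replicate 1 (0.104) and stress replicate 3 (0.0722). It was also lost under total-count scaling (0.0895) and without the filter on low counts (0.0692) by edgeR, and DESeq2 gave adjusted p = 0.109. In SC224 at the same time PRR37 had 0, 5 and 0 counts after cold, against 1, 2 and 3 in controls, and the groups overlapped. At ZT15 chilled and control leaves overlapped under both labels, with 5, 8 and 3 counts in chilled SC224 leaves, against 9, 34 and 2 in controls, and with 8, 16 and 13 counts in chilled RTX430 leaves, against 1, 14 and 7 in controls. The cold response of PRR37 differed between times in RTX430 (joint edgeR adjusted p = 0.0378) and not past the threshold in SC224 (0.226). The RTX430 value missed the threshold in 10 of 24 fits that left out 1 library each, at 0.0504 to 0.120 by edgeR. Those were the fits without control replicate 1 or 3 at ZT1, control replicate 1 or 2 at ZT9, stress replicate 1, 2 or 3 at ZT1, stress replicate 1 or 3 at ZT9, or stress replicate 4 at ZT15. It also missed the threshold under total-count scaling (edgeR adjusted p = 0.0881), without the filter on low counts (0.0606) and with only the libraries concerned (0.0655). The SC224 value was 0.0288 without stress replicate 2 at ZT9.

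Heat left PRR37 without a called change at any time. At ZT15 it had 6, 2 and 8 counts in heated RTX430 leaves, against 11, 5 and 15 in controls, with a log2 fold change of -0.78 (SE 0.70, edgeR adjusted p = 0.401), or -0.56 without control replicate 1 (adjusted p = 0.630). In Macia leaves at ZT15 it had 0, 4 and 4 counts after heat, against 4, 4 and 6 in controls. Those groups overlapped. At ZT6 PRR37 had 1, 1 and 1 counts in heated Macia leaves (0.373, 0.381 and 0.288 CPM), below the 4, 2 and 4 counts (0.572, 0.849 and 0.961 CPM) of controls, and its ratio over pooled counts was 0.462 with a 95% counting interval of 0.0817 to 1.79. At ZT6 in RTX430 it had 1, 8 and 4 counts after heat, against 1, 3 and 14 in controls.

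**Figure D5:**
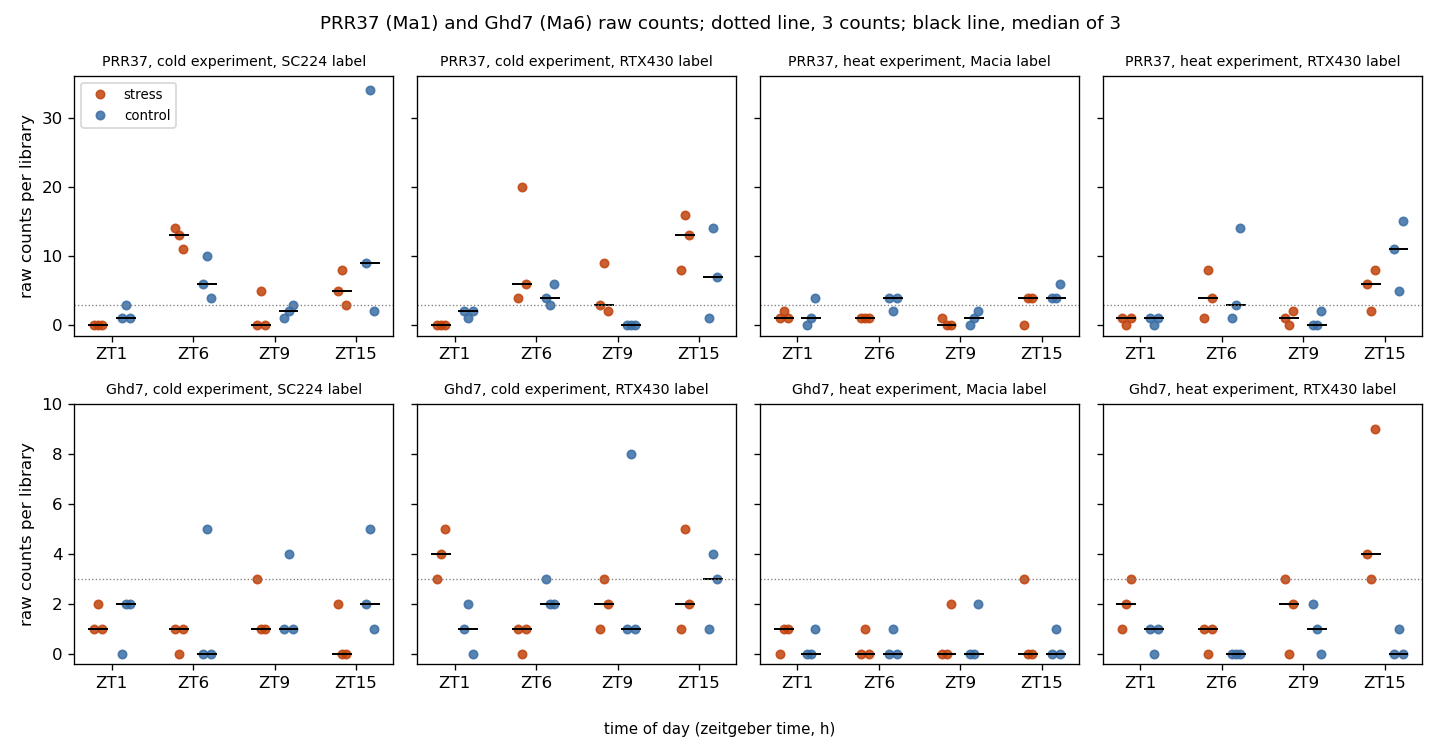
Raw counts of PRR37 (upper row) and Ghd7 (lower row) in each library (y axis) by time of day (x axis), with stress in orange, control in blue, black lines for the median of 3 and a dotted line at 3 counts. PRR37 is at 0 in all 6 chilled libraries at ZT1, and Ghd7 stays at or below 9 counts throughout.

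Ghd7, the repressor at Ma6, was close to the limit of detection. Over the 96 libraries it had 140 counts in all, none in 32 libraries and more than 3 in 10. These fell as 36 counts over the 24 libraries of SC224 and 56 over the 24 of RTX430 in the cold experiment, and as 13 over Macia and 35 over RTX430 in the heat experiment. At this depth no daily course could be read. In every control set neighbouring times in the order of their levels overlapped. In RTX430 controls of the cold experiment the ZT1 libraries (0 to 0.394 CPM) lay below those of ZT9 (0.465 to 1.5 CPM). Without the filter on low counts the joint edgeR test called no difference between times in any set. Its smallest adjusted p was 0.394, in RTX430 of the heat experiment.

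Ghd7 counts were higher after stress without overlap in 2 of 16 contrasts. The share of all genes with such a gap was not computed, so this count cannot be read as a trait of Ghd7. At ZT15 it had 4, 3 and 9 counts in heated RTX430 leaves, against 0, 1 and 0 in controls, a ratio over pooled counts of 17.6 with a 95% counting interval of 2.73 to 736. The control of replicate 1 there, the library with genes of other labels, had 0 counts of Ghd7, so the control sum is 1 with and without it. The ratio was not computed without it. A fit without the filter on low counts gave a log2 fold change of 3.58 (SE 1.26, edgeR adjusted p = 0.0363), where 21.4% of 28459 genes were called. In that fit the heat response averaged over both labels and all times was also above 0 for Ghd7 (edgeR adjusted p = 0.0162). Neither call was refitted without the doubtful libraries named above. With the filter, 60.6% of all genes were called for that average. No size is given, because RTX430 controls of the heat experiment had no Ghd7 count at ZT6. At ZT1 Ghd7 had 3, 4 and 5 counts in chilled RTX430 leaves, against 1, 2 and 0 in controls, a ratio of 3.34 with a counting interval of 0.901 to 18.4, and the fit without the filter gave adjusted p = 0.473 by edgeR. In chilled SC224 leaves at ZT1 it had 1, 2 and 1 counts, against 0, 2 and 2 in controls. In heated Macia leaves at ZT15 it had 3, 0 and 0 counts, against 0, 1 and 0 in controls. These intervals cover counting error alone, since reads copied in PCR were not told apart.

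Of the 8 label differences in controls, 1 was called. Averaged over times, PHYC was higher in SC224 controls than in RTX430 controls, with a log2 difference of 0.37 (SE 0.10, edgeR adjusted p = 0.00682), where 20.5% of all genes were called. PHYC means in SC224 exceeded those in RTX430 at each of the 4 times, by 0.23 to 0.48 on the log2 scale. Without the SC224 control of replicate 1 at ZT1 the difference was 0.41 with edgeR adjusted p = 0.00228. The same difference was 0.18 (SE 0.17) for PHYB and -0.39 (SE 0.26) for Ma2, with edgeR adjusted p = 0.529 and 0.326. Without that library the Ma2 difference was -0.64 with edgeR adjusted p = 0.0674. For PRR37 edgeR gave adjusted p = 0.0647, and no size is given, because RTX430 controls had no PRR37 count at ZT9 and a fitted fold against them is not exact. There SC224 controls had 1, 2 and 3 counts. PRR37 passed without SC224 control replicate 2 at ZT9 (edgeR adjusted p = 0.0359) or RTX430 control replicate 2 at ZT15 (0.0403). Between Macia and RTX430 controls of the heat experiment no gene of the 4 was called, where 13.3% of all genes were. There the log2 difference was 0.62 for Ma2 (SE 0.28, edgeR adjusted p = 0.153, or 0.73 and 0.0821 without RTX430 control replicate 1 at ZT15), -0.06 for PHYB (SE 0.15), 0.06 for PHYC (SE 0.12) and -0.61 for PRR37 (SE 0.53). The Ma2 difference was 0.95 and passed without RTX430 control replicate 2 at ZT6 (edgeR adjusted p = 0.0121), where Ma2 was at 0.893, 12.7 and 3.09 CPM.

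The daily course and the stress responses of the 4 genes did not differ between labels past the threshold in the joint edgeR tests. For the daily course in controls 0.575% of all genes were called in the cold experiment and 0.273% in the heat experiment. For the response over the 4 times, 0.00548% of all genes, a single gene, was called in the cold experiment and 0.483% in the heat experiment, so these tests made few calls for any gene. The smallest unadjusted p among the 4 genes was 0.0406, for the cold response of PRR37, with an adjusted p of 1. For PHYB at ZT1 the cold response was smaller by 0.14 on the log2 scale in SC224 than in RTX430, with an SE of 0.49.

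The courses of the genes were also set beside one another over the 32 group means of log2(CPM + 1), as a description. PHYB and PHYC had a Pearson r of 0.641, PHYB and Ma2 0.473, and PHYC and Ma2 0.373. PRR37 had 0.0819 with PHYB, 0.147 with PHYC and 0.0491 with Ma2. The groups share controls, times of day and library scaling, and the low counts of PRR37 add noise to its values. Among the 17600 genes tested in both experiments, the one most like PHYC was Sobic.006G279700 (r = 0.929) and the one most like PHYB was Sobic.003G320600 (r = 0.886). For Ma2 it was Sobic.004G102301 (r = 0.877), and for PRR37 it was Sobic.006G147700 (r = 0.613).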

How the data were processed

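PolyA RNA of leaves was captured on oligo(dT) beads and sequenced as reads of 75 nt, per the labels' protocols. The authors deposited raw counts for 34129 genes in 96 libraries. The submitters' processing notes name HISAT2 and DESeq2. The genome build, the annotation, the counter and its use of strand are not given in the sources used here, so reads shared with near-identical or overlapping genes may be counted in a member.

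Counts were tested with edgeR 4.0.16 in R 4.3.3, in a group-means model over the 48 libraries of each experiment, with TMM scaling, filterByExpr by group (minimum count 10, minimum total 15), the quasi-likelihood F-test and Benjamini-Hochberg adjustment over the 18248 (cold) or 18648 (heat) genes tested. CPM were computed here from the deposited counts. The code was tested on simulated data. Library totals set the precision, and 3 counts over a group served as the floor. Intervals of count ratios are exact binomial at 95%. Alternatives were RLE and total-count scaling, no filter, a replicate block, DESeq2 1.42.0, only the libraries concerned, and leaving out each library.

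The members were not chosen by measured value, but they and the lists were set with earlier results of these data known. Levels of all 5 members were computed in every group, and part of them is given here. The gene most like each is given for all but Ghd7, which did not pass the filter. No ID of the table matched the RefSeq gene table (0 of 34129), so pathway genes, leaf markers and promoters were not analysed here. The earliest time is ZT1 in the sample labels and ZT0 in the treatment text, and replicates of RTX430 cold at ZT9 and ZT15 are numbered 1, 3 and 4. Libraries of a group differed pairwise by at least 3.43 in chi-square per degree of freedom, so none was counted as a duplicate.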

Additional observations from a re-analysis of the deposited data

Results flagged for a closer look

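The response of PHYB to cold differed between times of day by the joint edgeR quasi-likelihood test, with adjusted p = 0.00256 in SC224 and 0.0108 in RTX430. The RTX430 call was lost without control replicate 1 at ZT1 (0.0507) and with only the libraries concerned (0.0715). Cold raised PHYB at ZT1 and at no later time did the contrast pass. In SC224 all chilled libraries lay above their controls at ZT1 (39.6 CPM over pooled chilled libraries, against 10.8 CPM in controls) and below them at ZT15 (27.1 CPM, against 35.5 CPM). The gap at ZT15 was narrow, from 28.02 CPM in the highest chilled library to 28.14 CPM in the lowest control. The ZT15 contrast was not called (edgeR adjusted p = 0.931). The difference between those times was not tested apart from the joint test.

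The response of PRR37 to cold also differed between times in RTX430, with edgeR adjusted p = 0.0378. This call was lost under total-count scaling (0.0881), without the filter on low counts (0.0606), with only the libraries concerned (0.0655) and in 10 of 24 fits that left out 1 library each. All chilled libraries lay below their controls at ZT1, where PRR37 was at 0, and above them at ZT6 in RTX430 (2.63 CPM over pooled chilled libraries, against 0.942 CPM in controls), at ZT9 in RTX430 (0.97 CPM, against 0 in controls) and at ZT6 in SC224 (3.18 CPM, against 1.64 CPM). These opposite directions were not tested apart from the joint tests and rest on 38 or fewer counts in a group.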

How the results depend on the processing

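Calls were counted over pairs of gene and contrast. For cold, 4 of 32 pairs were called, with 2 without the filter and 2 with only the libraries concerned, and 2 to 4 when single libraries were left out, the lowest without control replicate 1 or 3 of SC224 at ZT1. For heat, 4 of 32 were called, with 7 under total-count scaling and 2 with only the libraries concerned, and 3 to 4 when single libraries were left out. Total-count scaling moved the median of all tested genes by -0.74 log2 units in Macia and -0.80 in RTX430 at ZT1 in heat, where the 3 added pairs lie (PHYB and PHYC in Macia, PHYC in RTX430). For time of day in controls, 11 of 16 pairs were called, with 9 to 12 when single libraries were left out and 15 under total-count scaling. For the label difference 1 of 8 was called, with 1 to 2 when single libraries were left out. For label by time (8 pairs) and label by stress (40 pairs) the count was 0 under all settings run, DESeq2 included. For time by stress 3 of 16 were called, with 1 using only the libraries concerned and 1 to 4 when single libraries were left out, the lowest without control replicate 1 of RTX430 at ZT1 in the cold experiment. The cause of these changes was not tested. With a replicate block the counts were 3 for cold, 4 for heat, 11 for time of day and 3 for time by stress, the lost cold call being PRR37 at ZT9 in RTX430 (edgeR adjusted p = 0.0604). Of 46 same-numbered pairs of a stress and a control library, 17 had deviations from their group means that correlated over 0.1 (-0.525 to 0.627). Pairs with different numbers were not set beside them, so whether the numbers pair libraries was not tested. No called value changed sign under any alternative. Of 160 mean levels by gene and group, 51 moved by more than the SD of their group when scaled to library totals. Levels of PRR37 and Ghd7 rest on few counts, and smaller changes of both were not detectable at this depth.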
